A study of Danio rerio with 6 samples.

Results

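The cytosolic ribosomal protein genes were examined in whole brains of adult zebrafish. A gene was counted as a member when its lower-cased symbol began with rpl, rps or rplp and a number, and when its mean value over the libraries was at least 1. Kinase and binding-protein genes named rps6k or rps19bp1 were left out. The rule found 83 of the 23678 genes in the table, 47 for the large subunit and 36 for the small subunit, and all 83 passed the minimum. The lowest mean was 52.5. No gene of the table carries the symbol rpsa, which the rule also names, and the gene listed as RPSA2 is described with the components outside the rule. Members printed in capitals carry the symbol of the human counterpart in the gene-name table. The pairs that share a symbol are printed with their Ensembl identifiers.

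Ribosomes translate mRNA into protein. The small subunit reads the message, and the large subunit joins amino acids and releases the growing chain through an exit tunnel. Ribosomal proteins are made in step with one another because each ribosome holds a fixed set of them. Their mRNAs in vertebrates begin with a run of pyrimidines, through which TOR kinase signalling and the binding protein LARP1 control their translation and stability. In humans, loss of a single copy of several of these genes causes Diamond-Blackfan anaemia, and in zebrafish heterozygous loss of several of them gives tumours. The proteins RPL5 and RPL11 also bind the ubiquitin ligase MDM2 when ribosome assembly fails. In neurons, ribosomal protein mRNAs are found in axons and dendrites as well as in cell bodies.

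The data held 3 libraries of wild-type (WT) fish and 3 of fish homozygous for chrna3 C246X, a CRISPR/Cas9 allele whose name denotes a premature stop in the alpha3 subunit of the nicotinic acetylcholine receptor. All were polyadenylated RNA of adult whole brain, read as pairs of 150 bp. Strain, age in days, sex and the number of fish per library are not given in the labels, and nothing says that libraries came from separate fish. The p-values therefore cover only how far these samples differ among themselves, and that spread may be technical. The deposited values are normalized estimates of reads per gene, and they summed to 25655952 to 26794838 per library. The transcript CHRNA3 had values of 102, 28.1 and 55.1 in WT and of 59.8, 40.7 and 57.4 in C246X. The genotypes overlapped (log2 fold change −0.06, 95% interval −1.04 to 0.93, limma adjusted p = 0.94, exact two-sided permutation p = 1 where 0.1 is the smallest possible). Since a premature stop need not lower its transcript, the labels are not checked by this level. Neuron markers were present, the 9 examined summing to 263304 to 294992 per library.

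As a group, the ribosomal protein genes were slightly lower in C246X brains. Their values summed to 497273, 505783 and 517500 for WT and to 421161, 455659 and 479718 for C246X, replicates 1 to 3. All 3 C246X sums lay below all 3 WT sums, with C246X replicate 3 the closest to WT. The group means were 506852 ± 10156 in WT and 452179 ± 29433 in C246X (SD, n = 3 each), a difference of −10.8%. As a share of the library, the members took 1.87%, 1.95% and 2.02% of the summed value in WT and 1.57%, 1.74% and 1.82% in C246X. In bulk tissue, fewer cells of a type and less RNA per cell cannot be told apart.

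**Figure D1:**
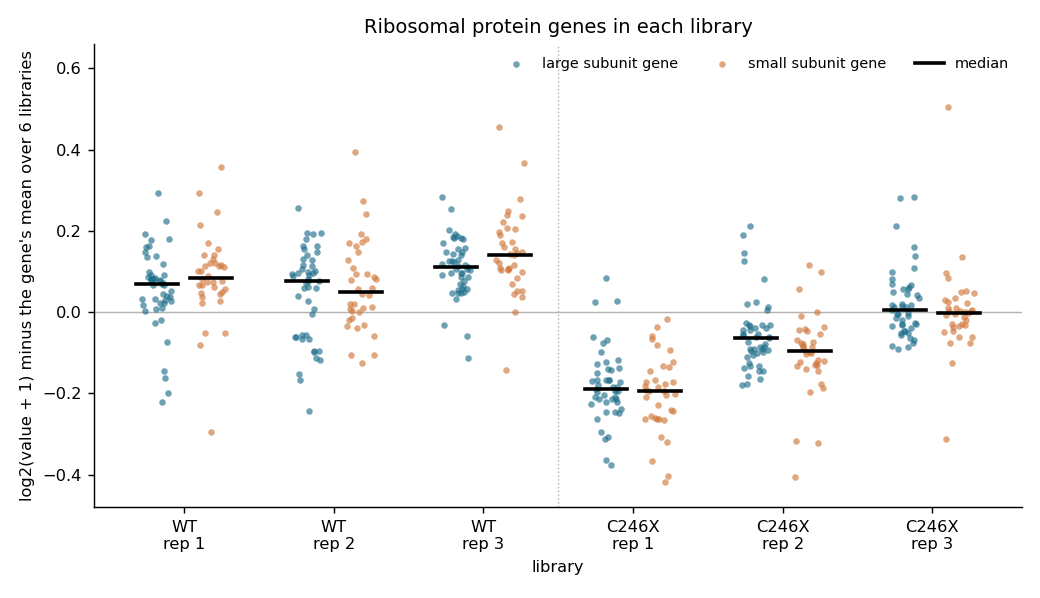
Each point is 1 ribosomal protein gene in 1 library, drawn as its log2(value + 1) minus that gene's mean over the 6 libraries, with large and small subunit genes side by side and black lines at the medians. By their medians, C246X replicate 1 sits lowest (−0.19) and WT replicate 3 highest (0.12).

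Most members shifted together between the genotypes and among the C246X libraries, and less clearly among the WT libraries. The median deviation of a member from its own 6-library mean, on the log2 scale, was 0.08, 0.07 and 0.12 in WT replicates 1 to 3 and −0.19, −0.08 and 0.00 in C246X replicates 1 to 3. C246X replicate 1 was the lowest of the 6 libraries for 69 of the 83 members. WT replicate 3 was the highest for 43. Among the C246X libraries, replicate 1 was the lowest for 77 members and replicate 3 the highest for 74. Among the WT libraries, replicate 3 was the highest for 51, and replicates 1 and 2 were each the lowest for 39. Such counts were not made over all tested genes. The median coefficient of variation of a member was 4.37% over the WT libraries and 6.83% over the C246X libraries. Over all tested genes the order was the other way round, with medians of 12.8% in WT and 9.66% in C246X. Among the 5352 genes with means from 1000 upwards, where most members lie, the medians were 6.52% and 4.15%. Against these the members varied less in WT and more in C246X. The gene RPL3, whose protein lies near the peptidyl transferase centre, was at 14676, 14695 and 14646 in WT and at 11710, 14681 and 13160 in C246X. Its WT libraries were almost level while its C246X libraries spread from well below WT up to the WT level, so it did not pass (adjusted p = 0.195).

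Gene by gene, 26 of the 83 members were lower in C246X (31.3%) and 2 were higher (2.41%), and 55 did not pass. Over all 23104 tested genes 11.4% were lower, 11.1% higher and 22.5% either. A gene was called when its limma p-value, adjusted over all tested genes by the Benjamini-Hochberg method, was under 0.05. Among the 5352 tested genes whose mean reached 1000, where most members lie, 9.75% were lower, 19.0% higher and 28.8% either. Fold changes are differences of C246X from WT in log2(value + 1), which understates the change of low genes. Their median was −0.19 for the members, against −0.01 for all tested genes, and 77 of the 83 were negative. The quartiles of the members were −0.25 and −0.11.

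**Figure D2:**
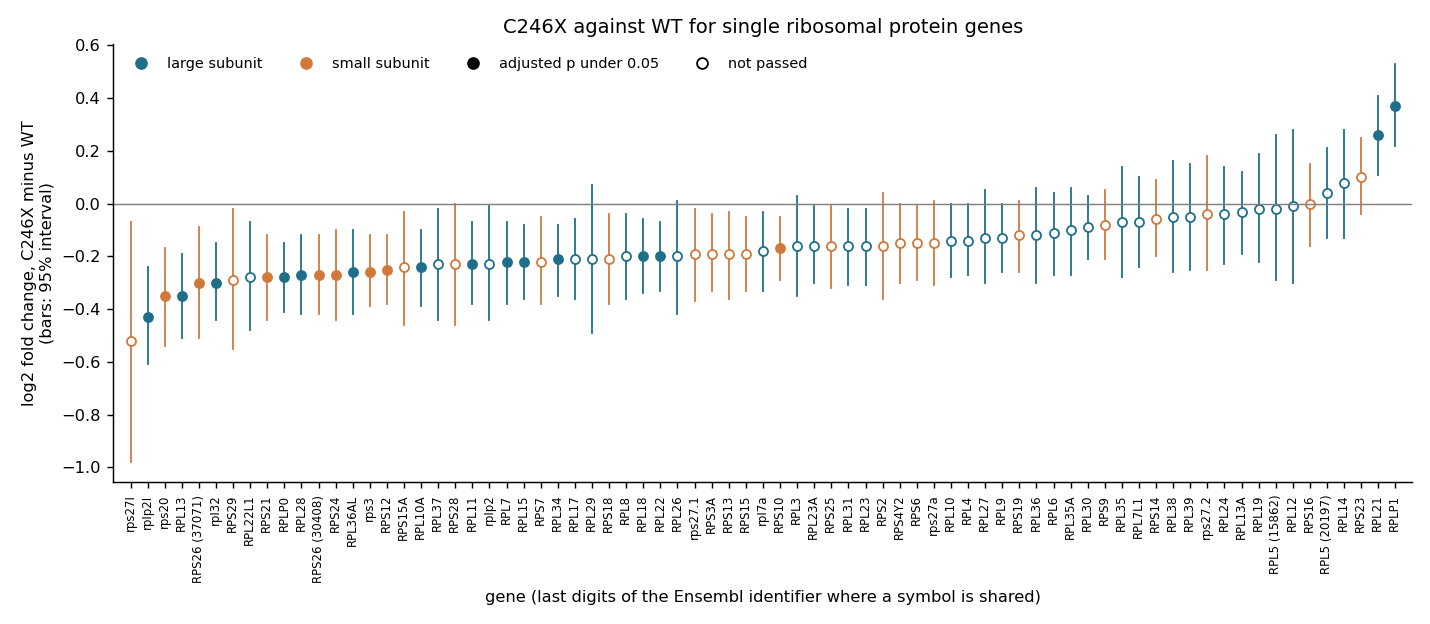
The log2 fold change (C246X minus WT) of each of 75 ribosomal protein genes is drawn with its 95% interval, in order of size, coloured by subunit and filled where the adjusted p was under 0.05. Most genes lie between 0 and −0.35, with rps27l and rplp2l lowest and RPLP1 and RPL21 highest.

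The values of WT and C246X libraries were fully separated for 50 members, 47 of them lower and 3 higher in C246X. Over all tested genes 20.7% did not overlap with C246X lower and 20.7% with C246X higher, and over those with means from 1000 upwards 17.8% and 30.5%. The 21 members that did not overlap on the low side and yet did not pass had log2 fold changes from −0.28 (RPL22L1) to −0.09 (RPL30). Size alone did not set them apart, since RPS10 passed at −0.17 (adjusted p = 0.0488). One of the 21 was RPS6, the substrate of S6 kinase, with 8190, 8504 and 8707 in WT. In C246X it had 7108, 7792 and 8019 (log2 fold change −0.15, adjusted p = 0.121).

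The number of members that passed rested on single libraries. It fell from 26 to 6 without C246X replicate 1, to 5 without C246X replicate 2 and to 7 without WT replicate 3. The shares were then 7.23%, 6.02% and 8.43% of the members, beside 6.84%, 7.44% and 7.40% of all tested genes, so that the members stood at the background. Without WT replicates 1 or 2 or C246X replicate 3 the counts were 20, 18 and 18, which are 24.1%, 21.7% and 21.7% of the members beside 10.2%, 9.14% and 7.28% of all genes. The median fold change stayed between −0.14 and −0.22 in these 6 fits, with 69 to 78 members negative. Of the 28 members that passed, 6 passed in every one of them, among these RPL13, RPLP0, RPLP1 and rplp2l.

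**Figure D3:**
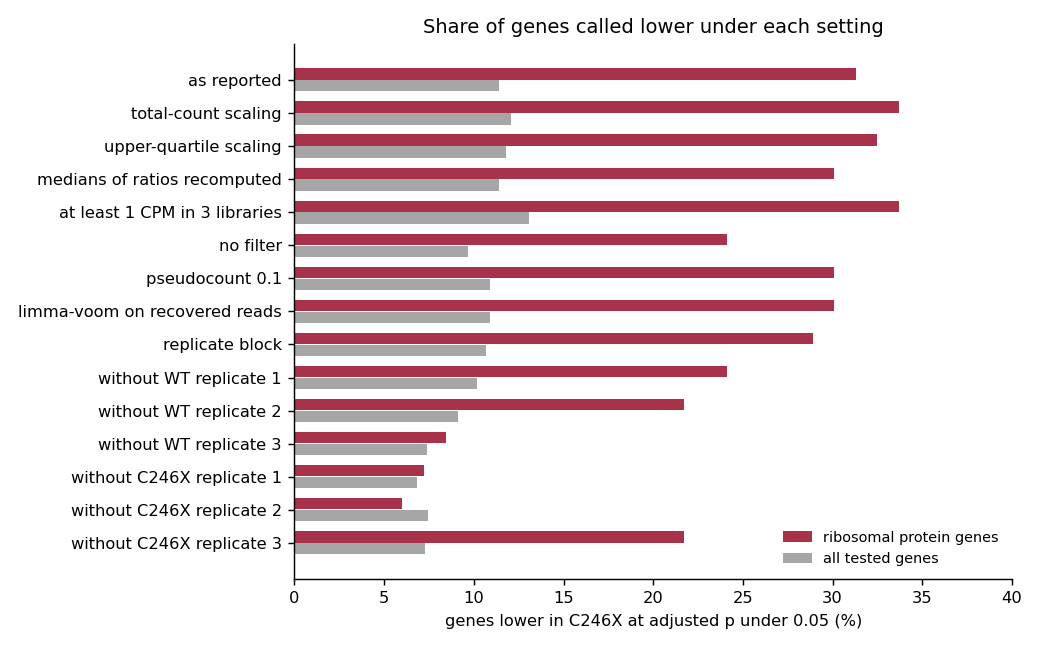
Bars give the percentage of genes lower in C246X at an adjusted p under 0.05, for the 83 ribosomal protein genes (red) and all tested genes (grey), as reported and under 14 other settings. Scaling to the ribosomal protein genes, which leaves 2.41% of them and 7.26% of all genes lower, is not drawn. The red bars exceed the grey ones under the other scalings drawn and the changes of filter, pseudocount, test or block, and fall to the grey level without WT replicate 3, C246X replicate 1 or C246X replicate 2.

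Both subunits took part. Of the large subunit genes 14 of 47 were lower and 2 higher, with a median log2 fold change of −0.16, and of the small subunit genes 12 of 36 were lower and 0 higher, with a median of −0.19. At an unadjusted p under 0.05 the lower members numbered 25 of 47 and 26 of 36. At that threshold 4336 of all 23104 tested genes were lower, and 849 of the 5352 with means from 1000 upwards. The counts passing as lower went down to 3 large and 2 small subunit genes without C246X replicate 2, to 3 of each subunit without C246X replicate 1, and to 4 and 3 without WT replicate 3. The large subunit count was 7 without WT replicate 2 and 9 without C246X replicate 3. Small subunit genes summed to 0.653, 0.656 and 0.656 of the large subunit sum in the WT libraries and to 0.634, 0.622 and 0.624 in the C246X libraries. The WT libraries were nearly level, and all 3 C246X libraries lay below them. This ratio is of read-based values that are not divided by transcript length, so it is no ratio of molecules. It also includes genes not reported singly here.

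**Figure D4:**
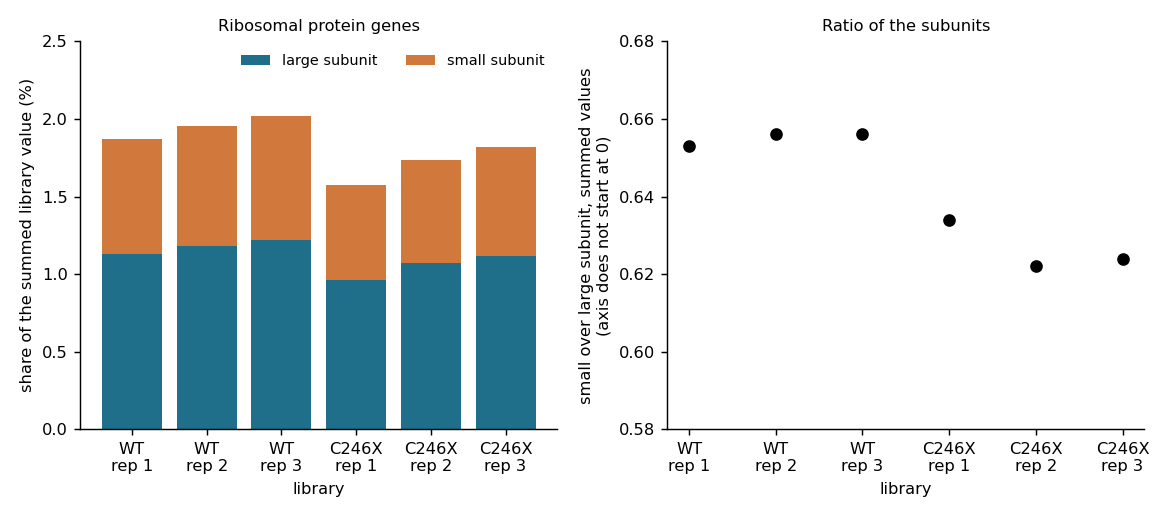
Left, stacked bars give the share of each library's summed value taken by large (blue) and small (orange) subunit genes, between 1.57% and 2.02% together. Right, points give the summed small subunit value over the summed large subunit value, between 0.653 and 0.656 in WT and between 0.622 and 0.634 in C246X, on an axis that does not start at 0.

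The P stalk, the flexible arm of the large subunit that recruits elongation factors, held members that went both ways. Its base, RPLP0, had values of 11653, 12560 and 12120 in WT and of 9542, 10073 and 10329 in C246X. It fell by 0.28 on the log2 scale (SE 0.057, adjusted p = 0.0114), with no overlap. RPLP1, which dimerizes with P2 proteins on the stalk, was at 4407, 4269 and 4674 in WT and at 5360, 5764 and 6155 in C246X. All C246X libraries lay above all WT libraries. Its mean of 4450 ± 206 in WT became 5760 ± 397 in C246X, a rise of 29.4% (0.37 on the log2 scale, SE 0.067, adjusted p = 0.0068). Of the P2 genes, rplp2l had 2454, 2406 and 2614 in WT and 1655, 1899 and 2023 in C246X and fell by 0.43 (SE 0.082, adjusted p = 0.00858). The gene rplp2 had 1978, 1609 and 1669 in WT and 1367, 1574 and 1539 in C246X, with a narrow gap between the genotypes, and did not pass (−0.23, adjusted p = 0.12). Of the 4 stalk genes 1 rose, 2 fell and 1 did not pass.

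**Figure D5:**
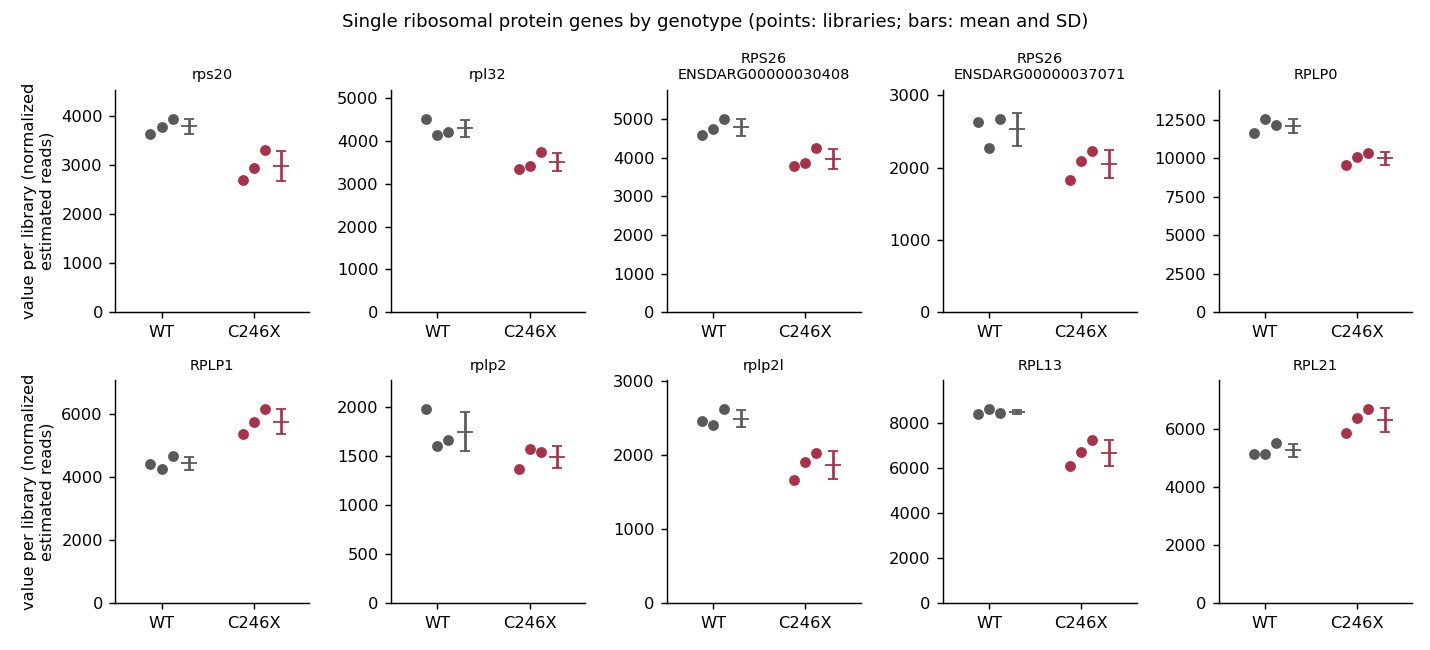
Points are the normalized values of the 3 WT and 3 C246X libraries for 10 ribosomal protein genes, with the mean and SD beside them, on axes that start at 0. RPLP1 and RPL21 are higher in C246X, and the other genes are lower.

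The other member that rose was RPL21, a protein of the large subunit, with 5166, 5147 and 5546 in WT and 5888, 6395 and 6690 in C246X. The genotypes did not overlap, with means of 5286 ± 225 and 6324 ± 406 (0.26 on the log2 scale, SE 0.065, adjusted p = 0.0247). It passed in 2 of the 6 fits that left out a library (adjusted p up to 0.096). The small subunit gene RPS23, whose protein sits at the decoding centre, was at 4820, 4644 and 5001 in WT and at 4871, 5194 and 5491 in C246X, overlapping, and missed the threshold (0.10, adjusted p = 0.268). RPL14 likewise did not pass (0.08, adjusted p = 0.585), with C246X values from 6236 to 8115 around WT values of 6730 to 6871.

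Among the other members with the largest falls were genes of both subunits. RPL13 had 8388, 8585 and 8429 in WT and 6055, 6683 and 7209 in C246X, with WT libraries close together and all above C246X (−0.35, adjusted p = 0.00964). The gene rps20, of the head of the small subunit, had 3639, 3767 and 3943 in WT and 2684, 2941 and 3303 in C246X, also without overlap (−0.35, adjusted p = 0.0177). The large subunit gene rpl32 was at 4524, 4141 and 4218 in WT and at 3341, 3423 and 3739 in C246X (−0.30, adjusted p = 0.0146). Here as well every C246X library lay below every WT library. Other members that fell had log2 fold changes from −0.30 to −0.17 and adjusted p from 0.0167 to 0.0489. They included RPL7, RPL10A, RPL11, RPL15, RPL18, RPL22, RPL28, RPL34 and RPL36AL of the large subunit. Of the small subunit they included rps3, RPS10, RPS12, RPS21, RPS24 and RPS26 (both copies). Of these, RPL18, RPL22 and RPS10 passed in 0 of the 6 fits that left out a library, and RPL7, RPL10A, RPL11, RPL15, RPL34, RPL36AL and 1 RPS26 copy in 1.

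Members were also grouped by their place on the ribosome, with groups drawn up after the values were seen. The genes of the nascent chain exit tunnel and its rim (RPL4, RPL17, RPL19, RPL23A, RPL26, RPL31, RPL35 and RPL39) had log2 fold changes between −0.21 and −0.02, and 0 of 8 passed. At an unadjusted p under 0.05, 4 of these 8 were lower, beside 25 of the 47 large subunit genes and 4336 of the 23104 tested genes. At the mRNA exit of the small subunit both RPS26 copies fell, and RPS14 and RPS28 did not pass. At the mRNA entry rps3 fell from 10460 ± 434 to 8740 ± 392, while RPS2 and RPS9 did not pass. In the beak of the small subunit RPS10 and RPS12 fell and rps27a, which encodes a fusion of ubiquitin and a ribosomal protein, did not pass. In the 5S particle RPL11 fell from 4909 ± 108 to 4206 ± 346. The RPL5 copies were at 6236 ± 875 in WT and 6158 ± 746 in C246X (ENSDARG00000015862) and at 4815 ± 253 and 4973 ± 425 (ENSDARG00000020197), and neither passed. Of 12 members whose human counterparts were among those listed for Diamond-Blackfan anaemia, 7 fell and 0 rose, with a median of −0.22, beside 31.3% of all members and 11.4% of all tested genes lower. Of those that fell, RPS10 passed in 0, RPL11 in 1 and RPS24 in 2 of the 6 fits without a library. RPS19, the gene most often affected in that disease, was at 5911, 5694 and 6073 in WT and at 5104, 5462 and 5656 in C246X, which did not pass (−0.12, adjusted p = 0.165).

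Of the 6 members with the highest mean values, which also depend on transcript length, only RPL7 passed, falling from 14605 ± 827 to 12516 ± 719 (−0.22, adjusted p = 0.0464). RPS2, with the highest mean, was at 16833, 20625 and 18095 in WT and at 15390, 16443 and 17713 in C246X, so that the genotypes overlapped (−0.16, adjusted p = 0.222). RPL3, RPL4, RPL6 and RPL8 had log2 fold changes of −0.16, −0.14, −0.11 and −0.20 and did not pass. At the low end rps27l, a relative of the rps27 genes, was at 142, 109 and 153 in WT and at 83.6, 83.5 and 113 in C246X, overlapping narrowly (−0.52, adjusted p = 0.095).

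Zebrafish carry several of these proteins as duplicate or related genes, and the balance between copies was compared within each library for 11 pairs. With 3 libraries against 3 the exact two-sided permutation p cannot go below 0.1, and the lowest value adjusted over the 11 pairs was 0.183, so no pair could pass. The pairs among rps27.1, rps27.2 and rps27l share genes, so the 11 pairs are not independent. Ratios did not overlap between the genotypes for 6 pairs, and the share over other pairs of genes was not counted. Among these 6 were RPL7L1 against RPL7, and rps27.2 against each of rps27.1 and rps27l. The copy rps27.1 gave 47.5% to 48.8% of the reads of rps27.1 and rps27.2 in WT and 44.9% to 46.0% in C246X, though neither gene passed. Both RPS26 copies fell, ENSDARG00000030408 from 4788 ± 215 to 3967 ± 258 (−0.27, adjusted p = 0.0207). ENSDARG00000037071 was at 2633, 2270 and 2676 in WT and at 1833, 2092 and 2223 in C246X. Its genotypes were separated by a narrow gap (−0.30, adjusted p = 0.0489), and it passed in 1 of the 6 fits without a library. RPL22 fell from 4166 ± 19.1 to 3637 ± 182, and RPL22L1, its relative that rises in mice lacking Rpl22, had 767 ± 37.4 in WT and 635 ± 60.5 in C246X, which did not pass (−0.28, adjusted p = 0.0606). Close copies can share reads, and the submitters' counting of such reads is not given in the sources used here, so single values within these pairs are uncertain.

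When the libraries were instead scaled so that the median member was level, a setting chosen after the data were seen, some members still differed. Among them rplp2l was lower by −0.25 (adjusted p = 0.0457). RPLP1, RPL21 and RPS23 were higher by 0.55 (adjusted p = 0.000953), 0.44 (adjusted p = 0.00321) and 0.28 (adjusted p = 0.022). This scaling moved the median of all tested genes to 0.17, and 7.26% of them were then lower and 19.6% higher. By construction it leaves the members without a common shift.

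Ribosome components that the naming rule leaves out behaved in several ways. RACK1, a scaffold protein bound to the head of the small subunit, had 8727, 9530 and 8990 in WT and 7375, 7736 and 8068 in C246X and fell by 0.23 (adjusted p = 0.0261). Of the FAU genes, which fuse a ubiquitin-like protein with a small subunit protein, faub fell from 437 ± 20.8 to 310.0 ± 18 (−0.49, adjusted p = 0.00725), and FAU was at 3182 ± 235 and 3067 ± 116 and did not pass. RPSA2, of the laminin receptor family of small subunit proteins, had 12064, 11142 and 11641 in WT and 11932, 12432 and 13188 in C246X, which did not pass (0.11, adjusted p = 0.24).

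Lists of genes that build ribosomes had median fold changes near 0. Over all tested genes 11.1% were higher and 11.4% lower. Of 85 ribosome assembly factors 8 rose and 4 fell, with a median log2 fold change of 0.02, so they were called no more often than all tested genes. GNL2, a nucleolar GTPase of large subunit assembly, rose from 594 ± 33.2 to 1845 ± 372 (1.62, adjusted p = 0.000174), and nop2, an rRNA methyltransferase, from 326 ± 20.2 to 467 ± 30.4. NOC2L and DDX51 fell from 291 ± 55.1 to 147 ± 15.1 and from 341 ± 28.8 to 229 ± 11.5. Of 13 RNA polymerase I genes, which transcribe rRNA, 0 passed (median 0.07). Of 29 TOR and MYC regulators 2 rose and 3 fell (median 0.02). MTOR, the TOR kinase itself, rose from 2168 ± 42.9 to 2983 ± 66.1 (0.46, adjusted p = 0.000785) and larp4aa, a LARP family RNA-binding gene, from 1188 ± 101 to 1497 ± 99.9. EIF4EBP2, a translation repressor that TOR phosphorylates, fell from 7192 ± 334 to 5608 ± 70.6 (−0.36, adjusted p = 0.00312), and larp4ab from 1082 ± 83 to 736 ± 109. In a list of stress and growth-arrest genes 6 of 18 fell and 0 rose (median −0.28), led by BTG2, an antiproliferative gene, from 1196 ± 85.9 to 605 ± 53.8, and a copy of the stress gene GADD45A (ENSDARG00000104571), from 357 ± 28.8 to 238 ± 17.7.

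Markers of several cell types moved with genotype beside the ribosomal protein genes. The counts below stand beside 11.1% of all tested genes higher and 11.4% lower. Among 16 markers of microglia and macrophages, 15 fell, and the list summed to 10481 to 11422 in WT and 5603 to 7332 in C246X. Of 12 dividing cell markers 9 fell and 0 rose, with sums of 5824 to 8254 in WT and 4132 to 5266 in C246X. Of 7 oligodendrocyte markers 5 fell and 1 rose, with sums of 297097 to 369912 in WT and 210322 to 239308 in C246X. The sums of neuron, radial glia and red cell markers overlapped between the genotypes, with 2 of 9 higher and 1 lower, 1 of 8 higher and 3 lower, and 1 of 7 higher and 0 lower. None of the matched markers was at 0 in every library. Among the C246X libraries, replicate 1, the lowest for ribosomal protein genes, also had the lowest dividing cell and oligodendrocyte sums. In WT, replicate 1 had the lowest ribosomal protein and dividing cell sums but the highest oligodendrocyte sum. The WT oligodendrocyte sums were 369912, 297097 and 326750 in replicates 1 to 3. C246X replicate 1 was the lowest of the 6 libraries for 9 of the 9 dividing cell markers that fell. It was also the lowest for 5 of the 5 such oligodendrocyte markers and for 13 of the 15 such microglia and macrophage markers. The other lists varied, with 1 of 3 radial glia markers, 1 of 1 neuron markers and 2 of 3 ribosome components outside the rule. The count was 1 of 6 for stress and growth-arrest genes, 0 of 4 for assembly factors and 1 of 3 for TOR and MYC regulators. Genes that fell were picked as lower in C246X, so their lowest library is almost always a C246X library. The share over all genes that fell was not counted, so these counts cannot be read as particular to any list. The microglia and macrophage sum was lowest in C246X replicate 2 because apoeb, the most abundant of that list, was at 6075, 4093 and 5450 in C246X replicates 1 to 3. The part of these cell types in the lower ribosomal protein values was not tested.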

How the data were processed

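The submitters' processing notes name STAR, an aligner, and the build GRCz11, and no sources used here give the counter, annotation release or scaling. From its values, the deposited signal was a fractional read estimate scaled by library: 95.0% to 95.1% of values under 1000 were whole multiples of 1 step within 0.03. Steps of 0.996 to 1.06 gave 24222345 to 26659979 reads per library. Mutant rows carry another name in the table and were matched by genotype and number. No sequences are shown, and some members are not reported here singly, though sums, medians and counts include them.

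Genes with a mean of 1 or more were kept (23104 of 23678). Values on the log2(value + 1) scale were fitted by genotype with limma 3.58.1 in R 4.3.3 with a mean-variance trend, and p-values were adjusted over all of these genes (Benjamini-Hochberg). The alternatives were other scalings, filters and pseudocounts, limma-voom, a replicate block and leaving out each library.

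The members and lists were chosen with earlier results of these data known. List genes were matched by symbol, or without a final copy letter or number. Named genes were chrna3, members that passed, the 6 with the highest means, copies, and the 2 list genes of smallest p in each direction. Any other gene was named with its values in view. The replicate numbers are not stated to pair the genotypes, and the main fit did not pair them. Deviations from the group means correlated at 0.07, 0.05 and 0.06 between libraries of equal number. Between libraries of unequal number the correlations ran from −0.07 to 0.01. Figures were drawn with matplotlib 3.10.9.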

Additional observations from a re-analysis of the deposited data

How the results depend on the processing

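The shift of most members was close to the spread between the C246X libraries, which limits what 3 libraries a genotype can show. Over 8 alternatives (total-count, upper-quartile and median-of-ratios scaling, 1 CPM in 3 libraries, no filter, a pseudocount of 0.1, limma-voom on the recovered reads and a replicate block), 20 to 28 members were lower and 2 higher. With the replicate block 24 were lower and 2 higher. Each library correlated best with its own number, but only at 0.05 to 0.07. Deviations from a group mean cancel out within the group, which ties these correlations to one another. They cannot show whether the libraries were paired. Leaving out each library in turn gave 5 to 20 members lower and 1 to 2 higher. For large subunit genes this gave 3 to 11 lower and 1 to 2 higher, for small subunit genes 2 to 11 lower, and for all genes 1581 to 2353 lower and 1394 to 2425 higher. Scaled to the ribosomal protein genes, a choice made after seeing the data, 2 members were lower, 1 of each subunit, and 3 higher, 1 of them of the small subunit, which follows from that scaling. The log2 fold change of CHRNA3 turned positive when WT replicate 1 (0.39) or C246X replicate 2 (0.11) was left out, and was lowest without WT replicate 2 (−0.52); the cause was not tested.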

Other observations

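Other regulators and builders of ribosomes that passed are given here as values, named after these were seen. MDN1, the AAA ATPase that strips factors from the maturing large subunit, was at 1154, 1471 and 1810 in WT and at 2617, 2578 and 2395 in C246X. It rose by 0.80 on the log2 scale (limma adjusted p = 0.00658), with WT libraries far apart and C246X libraries close together. NOB1, the nuclease that trims the small subunit rRNA, rose from 522 ± 14.5 to 622 ± 29.3 (adjusted p = 0.045), and GAR1, a protein of the particles that pseudouridylate rRNA, from 467 ± 56.8 to 615 ± 70.3 (adjusted p = 0.0492). RRS1, which carries the 5S particle into the large subunit, fell from 367 ± 27.7 to 269 ± 14.3 (adjusted p = 0.0164).

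CCNG1, which encodes cyclin G1 and belongs to the stress and growth-arrest list, fell from 6722 ± 890.0 to 5177 ± 394 (adjusted p = 0.0303). MYCN, a transcription factor whose targets include ribosome genes, fell from 1873 ± 297 to 1417 ± 124 (adjusted p = 0.0472).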
